A study of Mus musculus with 16 samples.

Results

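Of the 13015 RNAs listed for fractionated mouse fibroblasts, 7 are the mRNAs of the mitochondrial genome described here: mt-Nd1, mt-Nd2, mt-Nd4, mt-Nd5, mt-Nd6, mt-Cytb and mt-Co1. They were chosen by their read numbers, as the mitochondrial mRNAs with ample reads, so their abundance is a description and is not tested. Members with few reads were left aside by that choice, since mt-Co2, mt-Co3, mt-Atp6 and mt-Nd3 had between 1 and 360 reads in a library, although mt-Nd6, with 59 to 193 reads, was kept. Of the 50-base stretches of the mRNAs left aside, 98.0% to 100% also occur in nuclear copies, so their few reads need not mean low levels. In all, 17 rows of the table come from the mitochondrial genome.

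NIH/3T3 cells, an established fibroblast line of the mouse, received either a control siRNA (siControl) or siRNA against Apc (siAPC), which encodes a large adaptor protein found at microtubule ends. Serum-starved cells sat for 2 h on filters with pores of 3 µm, extended protrusions towards lysophosphatidic acid for 1 h, and were fixed in 0.3% paraformaldehyde for 10 min. The protrusions (Ps) below the filter and the cell bodies (CB) above it were then collected separately, 1 filter serving for CB and 3 for Ps, and RNA was sequenced. Each siRNA thus gave a CB and a Ps group, 4 groups in all with 4 replicates each. The cells had been transfected 72 h earlier, and all groups share the serum starvation, lysophosphatidic acid and fixation. The study's methods list 2 siRNA sequences for Apc, and the study calls the replicates independent.

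Mitochondria keep a small circular genome of their own, which encodes rRNAs, tRNAs and a few core subunits of the respiratory chain, while all other mitochondrial proteins come from nuclear genes. Each strand is transcribed as a long precursor that is cut into separate RNAs, mostly at the tRNAs lying between the genes, so that neighbouring RNAs are made together and differ afterwards through processing and decay. Among the mRNAs, mt-Nd6 alone is encoded on the light strand. The RNAs are made, kept and translated inside the organelle, so their place in the cell follows that of mitochondria, which move along microtubules.

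The members differ in how well their reads can be told from those of other genes, and the sequences below are shown for that reason. All come from GENCODE M21 on GRCm38, 5′ to 3′. The mt-Nd5 and mt-Nd6 genes lie on opposite strands and overlap at their ends by 14 bases, chrM:13552-13565, given in capitals in the last 60 bases of both.
mt-Nd5, chrM:13506-13565, plus strand: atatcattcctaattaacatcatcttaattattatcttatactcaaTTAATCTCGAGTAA
mt-Nd6, chrM:13552-13611, minus strand: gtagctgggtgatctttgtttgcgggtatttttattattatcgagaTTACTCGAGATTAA
The strand setting of the read counting is not given in the sources used here. If strand was ignored, reads of the opposite strand over mt-Nd6 cannot be told apart from its own.

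The nuclear genome carries inserted copies of mitochondrial DNA. The pair below sets mt-Co1 beside Gm13340, a copy on chromosome 2 of which all 1545 bases align with mt-Co1 at 97.6% identity. It shows the 100 bases with the most differences, in capitals.
mt-Co1, chrM:5762-5861, plus strand: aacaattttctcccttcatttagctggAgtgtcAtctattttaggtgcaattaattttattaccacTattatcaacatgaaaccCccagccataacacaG
Gm13340, chr2:22589114-22589213, minus strand: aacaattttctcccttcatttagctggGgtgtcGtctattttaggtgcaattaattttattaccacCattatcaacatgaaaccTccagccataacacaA
A second copy, Gm29216 on chromosome 1, matches the last 492 bases of mt-Co1 at 98.8% identity, and its differences sit at its beginning.
mt-Co1, chrM:6381-6480, plus strand: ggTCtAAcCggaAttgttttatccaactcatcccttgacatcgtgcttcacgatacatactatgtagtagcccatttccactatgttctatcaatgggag
Gm29216, chr1:24616098-24616197, minus strand: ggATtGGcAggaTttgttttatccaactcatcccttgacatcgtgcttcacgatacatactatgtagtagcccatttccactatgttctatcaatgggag

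Of the stretches of 50 bases in mt-Co1, 51.1% also occur in one of these copies. For mt-Nd4 the share is 62.2%, because its first 876 bases are identical to Gm28439. It is 8.19% for mt-Nd2 (Gm13339) and 7.61% for mt-Nd5, whose copies are not listed in the table. No stretch of mt-Nd1, mt-Nd6 or mt-Cytb occurs in another annotated transcript. The listed copies held few reads, at most 0.41% of the reads of mt-Co1 (986 in Gm29216), 0.20% of those of mt-Nd4 and 0.18% of those of mt-Nd2 in any library. How reads with equal matches were counted is not given in the sources used here. mt-Co2, mt-Co3, mt-Atp6 and mt-Nd3, with 98.0% to 100% of their stretches in listed copies, held 1 to 360 reads in a library. mt-Co1 held 170908 to 422229. If reads with equal matches were left out, a gene and its copy would both hold few. The few reads of the copies therefore do not show that few reads were shared, and this was not tested.

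The libraries held 13466225 to 20296087 listed reads. Apc fell to lower levels in siAPC, with 29 to 69 reads against 73 to 269 in siControl (log2 difference in CB of -1.67, adjusted p = 0.000142 and in Ps of -1.84, adjusted p = 3.11e-05). The fibroblast collagens Col1a1 and Col1a2 stood at mean log2 CPM of 13.08 and 12.58, whereas Thy1 was near its floor at -1.74. Of 8 listed fibroblast markers, 6 fell in Ps in both siRNAs and 1 rose. In siControl, where 31.2% of all genes fell, Col1a1 fell by 1.33 and Fn1 by 1.21 on the log2 scale. Between siRNAs, 4 of the 8 were higher in siAPC in each fraction, beside 979 of 13015 genes in CB and 1393 in Ps. Pdgfra was lower in siAPC CB (-0.40, adjusted p = 0.00707 by limma), beside 764 of 13015 genes. Of 7 markers of other cell types 3 were listed. Of these, 1 was called higher in Ps, the muscle filament gene Des, in siControl (0.67, adjusted p = 0.000103) and in siAPC (0.49, adjusted p = 0.00199), from a low level of 130 to 171 reads in siControl CB. The nuclear RNAs Malat1 and Neat1 were lower in siControl Ps than CB by 2.77 and 1.76 on the log2 scale. The study's own protrusion RNAs, chosen on such samples, were higher in Ps in siControl for 5 of 5. One library of each group, siControl CB replicate 3 and replicate 2 of the other three groups, stood apart by a trend with GC content: Spearman correlations across genes of their deviation from the group with GC were -0.52 to -0.65, against -0.04 to 0.54 elsewhere. All members are low in GC, from 34.1% (mt-Nd6) to 39.9% (mt-Co1).

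Together the 7 mRNAs took 1.54% ± 0.25 (SD, n = 4) of the listed reads in siControl CB and 3.12% ± 0.63 in siControl Ps. With siAPC they took 1.50% ± 0.11 in CB and 2.47% ± 0.30 in Ps. The Ps libraries, from 2.12% upwards, all lay above the CB libraries, which reached 1.91%. In bulk fractions, more mitochondria in protrusions and more RNA in each mitochondrion cannot be told apart.

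The members' levels spanned a wide range. On the scale of log2 CPM per kilobase in siControl CB, mt-Co1, a core subunit of complex IV, had the highest level at 12.71 ± 0.07 (SD, n = 4). Next came mt-Nd1 of complex I at 10.90 ± 0.48. Below them were mt-Cytb, the cytochrome b of complex III, at 9.14 ± 0.55 and mt-Nd2 of complex I at 9.10 ± 0.47, which overlapped. Then followed mt-Nd5 at 8.22 ± 0.32 and mt-Nd4 at 7.19 ± 0.64, whose ranges also overlapped, and last mt-Nd6 at 3.64 ± 0.26. Neither the strand setting nor whether poly(A) RNA was selected is settled, which limits the level of mt-Nd6 as a measure of abundance. These levels divide by the whole gene length. Since the counting of reads shared with the copies is not given, and 62.2% of the stretches of mt-Nd4 but 7.61% of those of mt-Nd5 are shared, the place of mt-Nd4 in the order is not settled. The level of mt-Co1, with 51.1% of its stretches shared, carries the same limit.

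In siControl Ps the order per kilobase was mt-Co1 (13.89 ± 0.37), mt-Nd1 (12.97 ± 0.34), mt-Cytb (10.86 ± 0.41), mt-Nd2 (9.74 ± 0.36), mt-Nd4 (8.73 ± 0.46), mt-Nd5 (8.01 ± 0.13) and mt-Nd6 (3.65 ± 0.44), and no neighbours overlapped. Per kilobase of whole length, mt-Nd4 was above mt-Nd5 in 8 of 8 Ps libraries and in 0 of 8 CB libraries. With the limit of shared reads, which of the pair was higher in CB is not settled. Nor is the place of mt-Nd4 beside mt-Nd2 settled in Ps. mt-Cytb was above mt-Nd2 in 8 of 8 Ps libraries and in 5 of 8 CB libraries.

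Shares of reads across members depend on how shared reads were counted. Of their stretches, 51.1% of mt-Co1 and 62.2% of mt-Nd4 are shared, but none of mt-Nd1, mt-Cytb or mt-Nd6. mt-Co1 alone held 72.7% ± 6.75 (SD, n = 4) of the members' reads in siControl CB and 66.5% ± 2.54 in siControl Ps. The share of mt-Nd1 was 13.2% ± 3.32 in siControl CB and 21.9% ± 1.53 in siControl Ps, and that of mt-Nd5 was 3.83% ± 0.53 and 1.36% ± 0.26. mt-Nd6 held 0.045% ± 0.0038 and 0.019% ± 0.0047.

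**Figure D1:**
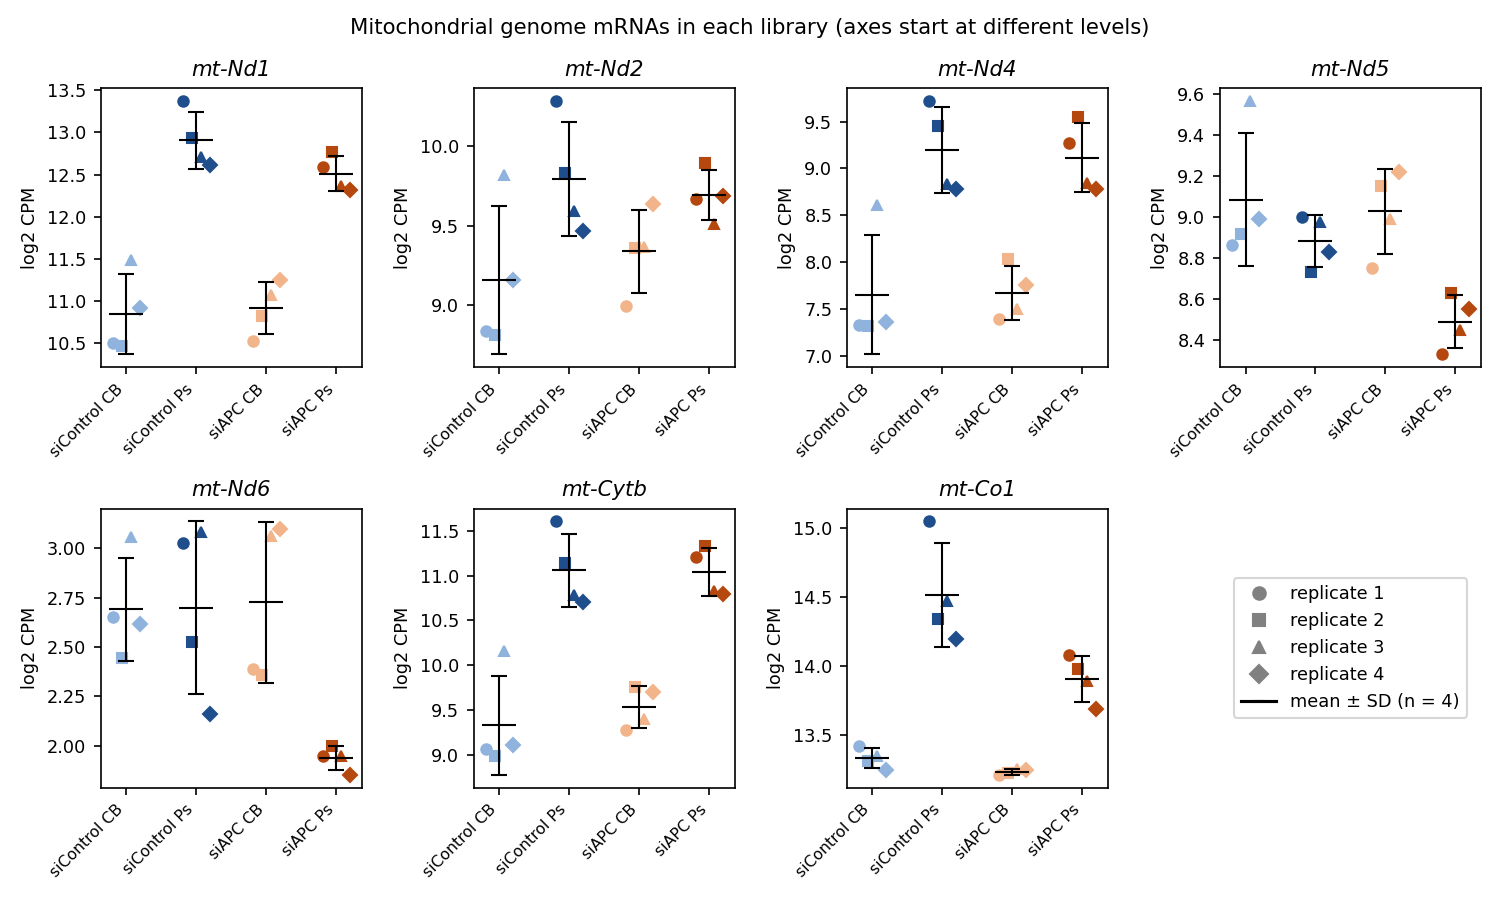
Level of each mitochondrial mRNA (log2 CPM, vertical axes starting at different levels) in the 16 libraries, by group, with mean ± SD (n = 4). The Ps libraries of mt-Nd1, mt-Nd4, mt-Cytb and mt-Co1 lie above all CB libraries of the same siRNA (24.0% of all genes do so in siControl and 28.2% in siAPC), while those of mt-Nd2, mt-Nd5 and mt-Nd6 do not, and siControl CB replicate 3 is the highest CB library of siControl for 6 of the 7.

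The comparison of Ps with CB asks whether these mRNAs were carried by the protrusions in excess of the average RNA. In siControl, 5 of the 7 rose in Ps (adjusted p below 0.05, the Benjamini-Hochberg adjustment of limma over all genes), and none fell, although 1 was called lower when scaled to total listed reads and 3 after the loess correction. Over all genes 29.1% rose and 31.2% fell. The members' median log2 of the Ps/CB enrichment ratio was 1.18, and that over all genes was -0.00091. The members' median was 0.39 under quantile normalization and 0.42 after the loess correction for GC content and length given below. With the threshold of the study (a ratio over 2 and an unadjusted p below 0.05, here by limma) 4 of the 7 were Ps-enriched, beside 7.19% of all genes. The rise was not shared by mt-Nd5 and mt-Nd6, and it was lost for mt-Nd2 under other scalings given below.

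mt-Nd1, which forms part of the membrane arm of complex I, had the largest ratio of the members at the deposited scaling. Its log2 CPM in siControl CB was 10.50, 10.46, 11.49 and 10.91 in replicates 1 to 4. In siControl Ps it was 13.38, 12.94, 12.71 and 12.62. Every Ps library lay above every CB library, and the log2 ratio was 2.07 (SE 0.21, a 4.20-fold difference, adjusted p = 6.37e-08 by limma). Under quantile normalization its ratio was 1.30 and that of mt-Nd4 was larger, at 1.45.

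mt-Cytb is the only subunit of complex III made in the mitochondrion. It stood at 9.07, 8.99, 10.15 and 9.11 in siControl CB. In siControl Ps it stood at 11.60, 11.14, 10.78 and 10.70. The groups did not overlap, although CB replicate 3 came near the lowest Ps library, and the log2 ratio was 1.73 (SE 0.22, adjusted p = 2.10e-06 by limma).

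mt-Nd4, another membrane subunit of complex I, had log2 CPM of 7.32, 7.31, 8.60 and 7.36 in siControl CB. In siControl Ps the values were 9.72, 9.45, 8.83 and 8.78. CB replicate 3 lay over 1 log2 unit above the other CB libraries and still below all Ps libraries. The log2 ratio was 1.55 (SE 0.26, adjusted p = 4.79e-05 by limma).

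mt-Co1, the catalytic core of cytochrome c oxidase, varied least among CB libraries. It had log2 CPM of 13.42, 13.31, 13.35 and 13.25 in siControl CB. In siControl Ps it had 15.05, 14.34, 14.48 and 14.20. The Ps libraries lay above all CB libraries, and the log2 ratio was 1.18 (SE 0.14, adjusted p = 7.44e-07 by limma). It was 0.38 under quantile normalization (adjusted p = 1.16e-06).

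mt-Nd2, a membrane subunit of complex I, was at 8.84, 8.82, 9.82 and 9.16 in siControl CB. In siControl Ps it was at 10.29, 9.83, 9.59 and 9.47. Here the groups overlapped, since CB replicate 3 lay above Ps replicates 3 and 4. The log2 ratio was 0.64 (SE 0.19, adjusted p = 0.00827 by limma). The call was lost when libraries were scaled to their total listed reads (0.34, adjusted p = 0.167) or by quantiles (0.39, adjusted p = 0.141).

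mt-Nd5, a subunit at the far end of the membrane arm, had log2 CPM of 8.86, 8.92, 9.56 and 8.99 in siControl CB. In siControl Ps it had 9.00, 8.73, 8.97 and 8.83. The groups overlapped and the log2 ratio was -0.20 (SE 0.13, 95% interval -0.47 to 0.07, adjusted p = 0.184 by limma). Leaving out the 4 libraries with a GC trend brought it to 0.01, leaving out siControl CB replicate 3 alone to -0.041, and scaling to total listed reads brought it to -0.50 (adjusted p = 0.00707), a fall.

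mt-Nd6, the complex I subunit of the light strand, had 2.65, 2.44, 3.06 and 2.62 in siControl CB. In siControl Ps it had 3.03, 2.53, 3.08 and 2.16. The groups overlapped throughout, with a log2 ratio of 0.01 (SE 0.21, 95% interval -0.43 to 0.44, adjusted p = 0.977 by limma). Its 63 to 193 reads per siControl library make this the least precise level of the 7 in counting terms.

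Among these RNAs of the same organelle genome the ratio ranged from -0.20 to 2.07 on the log2 scale.

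With siAPC, 4 of the 7 rose in Ps and 2 fell, beside 29.8% and 30.9% of all genes, and 3 passed the threshold of a ratio over 2, beside 7.67% of all genes. The members' median log2 ratio was 0.68, and that over all genes was 0.01. After the loess correction the members' median was -0.14. The comparison shares no library with that in siControl, but both come from 1 model with a shared estimate of the spread. Same-numbered siControl Ps and siAPC Ps libraries also deviated together (correlations of 0.16 to 0.55), so it is not an independent repeat. The order of the ratios was led by the same 4 mRNAs.

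mt-Nd1 had log2 CPM of 10.53, 10.81, 11.07 and 11.24 in siAPC CB. In siAPC Ps it had 12.60, 12.76, 12.37 and 12.31, all above the CB libraries, with a log2 ratio of 1.60 (SE 0.21, adjusted p = 2.11e-06 by limma). mt-Cytb had 9.28, 9.75, 9.40 and 9.71 in siAPC CB. In siAPC Ps it had 11.20, 11.33, 10.83 and 10.80, again without overlap, and its log2 ratio was 1.50 (SE 0.22, adjusted p = 1.21e-05 by limma).

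mt-Nd4 had 7.40, 8.03, 7.49 and 7.75 in siAPC CB. In siAPC Ps it had 9.28, 9.55, 8.85 and 8.78, and the log2 ratio was 1.45 (SE 0.26, adjusted p = 0.000105 by limma). The siAPC CB libraries of mt-Co1 were close together at 13.21, 13.22, 13.26 and 13.25. Those of siAPC Ps were higher at 14.08, 13.98, 13.90 and 13.69, with a log2 ratio of 0.68 (SE 0.14, adjusted p = 0.000427 by limma).

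mt-Nd2 was at 9.00, 9.36, 9.37 and 9.64 in siAPC CB. At 9.67, 9.90, 9.51 and 9.69, the siAPC Ps libraries overlapped with these, and the log2 ratio of 0.35 (SE 0.19, 95% interval -0.05 to 0.76) did not pass (adjusted p = 0.123 by limma). The same-numbered Ps library was the higher in 4 of 4, and with the replicate number as a block the ratio did not pass either (adjusted p = 0.126). Without siControl CB replicate 3, which enters only through the shared estimate of the spread, the unblocked ratio of mt-Nd2 had an adjusted p of 0.0490.

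The remaining pair fell in siAPC Ps. mt-Nd5 had log2 CPM of 8.75, 9.15, 8.99 and 9.22 in siAPC CB. In siAPC Ps it had 8.33, 8.63, 8.45 and 8.55, below all CB libraries, and the log2 ratio was -0.54 (SE 0.13, adjusted p = 0.00137 by limma). mt-Nd6 had 2.39, 2.36, 3.06 and 3.10 in siAPC CB. In siAPC Ps it had 1.95, 2.00, 1.95 and 1.85, also below all CB libraries, with a log2 ratio of -0.79 (SE 0.21, adjusted p = 0.00293 by limma) from 59 to 73 reads in Ps. Over all genes, 30.4% lay below all CB libraries in this way.

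These levels are relative to the other RNAs of a library, and they moved with a correction for GC content and transcript length together. The parts of GC content and length in this were not separated. After a loess fit of each library on GC content and transcript length, the siControl log2 ratios of mt-Nd1 (0.97, adjusted p = 0.000139), mt-Cytb (0.78, adjusted p = 0.00128), mt-Nd4 (0.53, adjusted p = 0.0218) and mt-Co1 (0.42, adjusted p = 0.00544) were smaller and still passed. In the same fit those of mt-Nd2 (-0.51, adjusted p = 0.0112), mt-Nd5 (-1.02, adjusted p = 1.06e-06) and mt-Nd6 (-1.56, adjusted p = 2.03e-05) were lower in Ps. In siAPC, mt-Cytb (0.51, adjusted p = 0.0246) and mt-Nd1 (0.45, adjusted p = 0.0436) still passed, mt-Nd4 (0.34, adjusted p = 0.142) and mt-Co1 (-0.14, adjusted p = 0.363) did not, and mt-Nd2 (-0.86, adjusted p = 0.000173), mt-Nd5 (-1.45) and mt-Nd6 (-2.39) were lower. The order among the 7 changed little, with mt-Nd1, mt-Cytb, mt-Nd4 and mt-Co1 above the other three in both fits and both siRNAs.

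**Figure D2:**
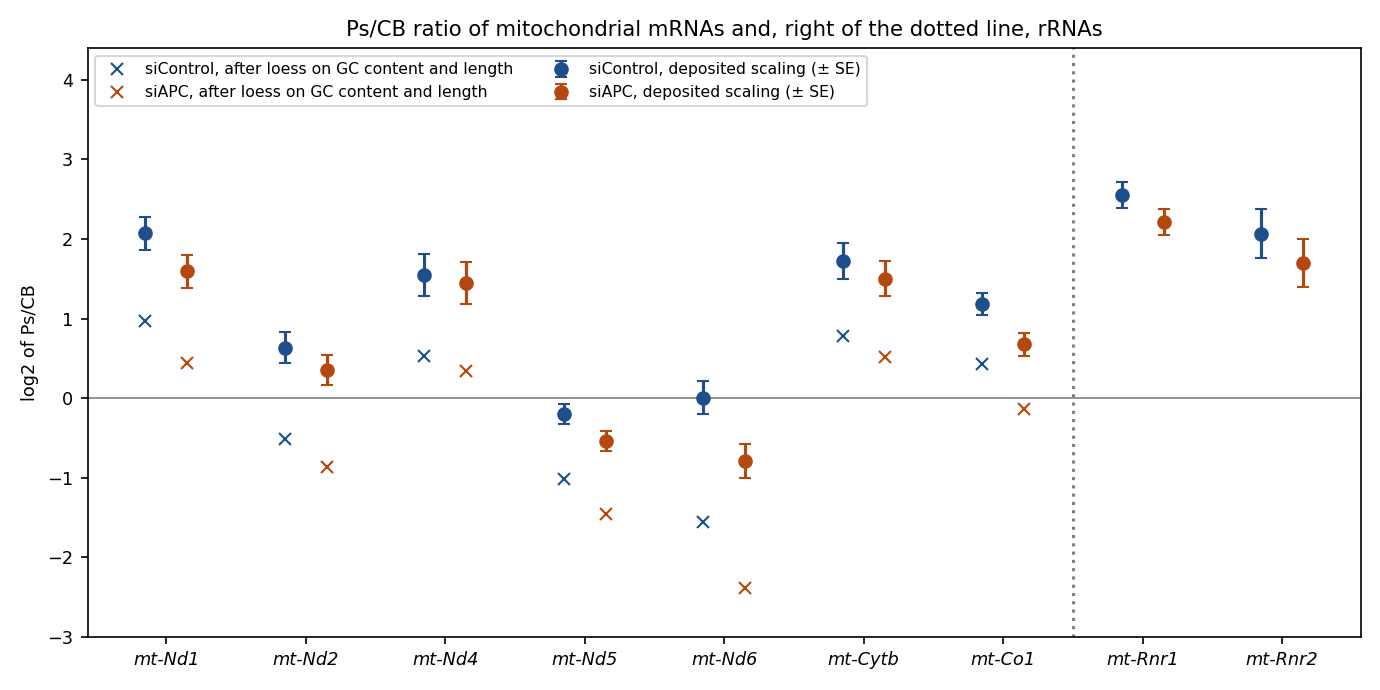
Log2 of the Ps/CB ratio for the 7 mRNAs and the 2 rRNAs in siControl and siAPC; filled points are limma estimates with SE and crosses are estimates for the mRNAs after a loess correction for GC content and length. The points run from -0.79 (mt-Nd6, siAPC) to 2.56 (mt-Rnr1, siControl), and the crosses lie lower than the points, below 0 for mt-Nd2, mt-Nd5 and mt-Nd6 in both siRNAs and for mt-Co1 in siAPC.

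The rRNAs of the mitochondrial ribosome are encoded next to mt-Nd1 on the same strand. mt-Rnr1, of the small subunit, had a Ps/CB log2 ratio of 2.56 (SE 0.16, adjusted p = 2.30e-10) in siControl and of 2.21 (adjusted p = 1.89e-09) in siAPC by limma. mt-Rnr2, of the large subunit, had 2.07 (SE 0.30, adjusted p = 8.93e-06) and 1.70 (adjusted p = 8.58e-05). Of the 10 mitochondrial rows that are no members, 9 rose in Ps in each siRNA, beside 29.1% of all genes in siControl and 29.8% in siAPC. mt-Nd3 reached at most -1.23 log2 CPM in CB (1 to 7 reads), below the lowest of the rows' highest values, -1.01. It is thus listed only through its Ps libraries, so its rise lends the count no support. mt-Atp6, mt-Ti and mt-Tt came close to that edge in CB, with highest values of -0.74, -0.70 and -0.90. The 4 further mRNAs mt-Co2, mt-Co3, mt-Atp6 and mt-Nd3 had ratios of 3.62 to 3.71 in siControl and 2.18 to 3.37 in siAPC. Those are uncertain, as 98.0% to 100% of their 50-base stretches also occur in listed nuclear copies. The 4 tRNAs ranged from 0.99 to 1.98 in siControl, on 2 to 76 reads.

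Differences between siControl and siAPC in the Ps/CB ratio were then compared, the measure the study writes as log2(Diff FC). No member passed in that test, in which 0.0231% of all genes (3 of 13015, all lower in siAPC) were called. The estimates of all 7 were below 0, and 2 had an unadjusted p below 0.05 with a lower ratio in siAPC, beside 1.71% of all genes. These were mt-Nd6, at -0.80 (95% interval -1.41 to -0.18, unadjusted p = 0.0139) and mt-Co1, at -0.50 (95% interval -0.92 to -0.09, unadjusted p = 0.0210), both with an adjusted p = 0.981 by limma. The other intervals all included 0, as for mt-Nd1 at -0.48 (-1.08 to 0.13) and mt-Nd4 at -0.10 (-0.88 to 0.68). For mt-Nd4 the sign turned when any of 5 libraries was left out. The difference of mt-Co1 was -0.33 without siControl Ps replicate 1, and under quantile normalization it was 0.39 (adjusted p = 0.0262), the opposite sign. That normalization sets a value by its rank alone, and mt-Co1 ranked 3 in every siControl CB library, 5 in every siAPC CB library, and 1 or 2 in the Ps libraries of both.

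The direct comparison of the siRNAs within a fraction used the same libraries. In CB none of the 7 was called, beside 13.4% of all genes, and their estimates lay between -0.10 (mt-Co1) and 0.21 (mt-Cytb). All 7 had an unadjusted p above 0.05 by limma, and every pair of groups overlapped. Under array weights, which give less weight to the more deviant libraries, mt-Cytb (0.41, adjusted p = 0.0375) and mt-Nd2 (0.38, adjusted p = 0.0429) were higher in siAPC CB. Without siControl CB replicate 3 alone their differences were 0.48 (adjusted p = 0.0800) and 0.40 (adjusted p = 0.113). Under quantile normalization mt-Co1 was lower in siAPC CB (-0.39, adjusted p = 1.17e-05).

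In Ps, 3 of the 7 were lower in siAPC, beside 11.2% of all genes, and none was higher. The median log2 difference of the members was -0.39, and that of all genes was -0.02. For the 3 called, mt-Co1, mt-Nd6 and mt-Nd5, all siAPC Ps libraries lay below all siControl Ps libraries, as they did for 11.6% of all genes. The members' median was -0.25 without siControl Ps replicate 1, -0.23 when scaled to total listed reads, 0 under quantile normalization and -0.33 after the loess correction described above. The rRNAs mt-Rnr1 (-0.59, adjusted p = 0.0129) and mt-Rnr2 (-0.94, adjusted p = 0.0314) were also lower, as was the tRNA mt-Tm (-1.66, adjusted p = 0.0303) on few reads, while the other 7 of the 10 further mitochondrial rows were not called in Ps. In CB, mt-Co2 was called higher in siAPC (1.23, adjusted p = 0.0230).

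mt-Co1 was lower in siAPC Ps by a log2 difference of -0.60 (SE 0.14, adjusted p = 0.00436 by limma). Among its siControl Ps libraries, replicate 1 at 15.05 was the highest. Without it the difference was -0.43, the smallest of those from leaving out any one library, and it still passed. Under quantile normalization, which sets a value by its rank alone, the difference was 0 (adjusted p = 1), since in both siRNAs mt-Co1 ranked 1 in 3 Ps libraries and 2 in 1. mt-Nd6 was lower by -0.76 (SE 0.21, adjusted p = 0.0124 by limma), and after the loess correction by -0.63, where it did not pass (adjusted p = 0.0543).

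mt-Nd5 was lower by -0.39 (SE 0.13, adjusted p = 0.0341 by limma). This call was lost on leaving out any of 6 of the 8 Ps libraries, replicates 1, 3 and 4 of both siControl (-0.35, -0.36 and -0.41) and siAPC (-0.34, -0.38 and -0.41), with adjusted p from 0.0508 to 0.105. Scaling to total listed reads (-0.23, adjusted p = 0.286) or by quantiles (-0.29, adjusted p = 0.215) also ended it. mt-Nd1, at -0.40 (SE 0.21, adjusted p = 0.185 by limma), passed only with the replicate number as a block (adjusted p = 0.00997), where each of the 4 same-numbered siAPC Ps libraries was the lower. Without siControl Ps replicate 1 its difference was -0.25.

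The other three showed differences near 0 in Ps with wide intervals: -0.10 (-0.51 to 0.30) for mt-Nd2, -0.08 (-0.63 to 0.47) for mt-Nd4 and -0.02 (-0.49 to 0.45) for mt-Cytb. These signs turned when the libraries were scaled to total listed reads, a scaling that moves the median of all genes in this comparison from -0.02 to 0.14.

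**Figure D3:**
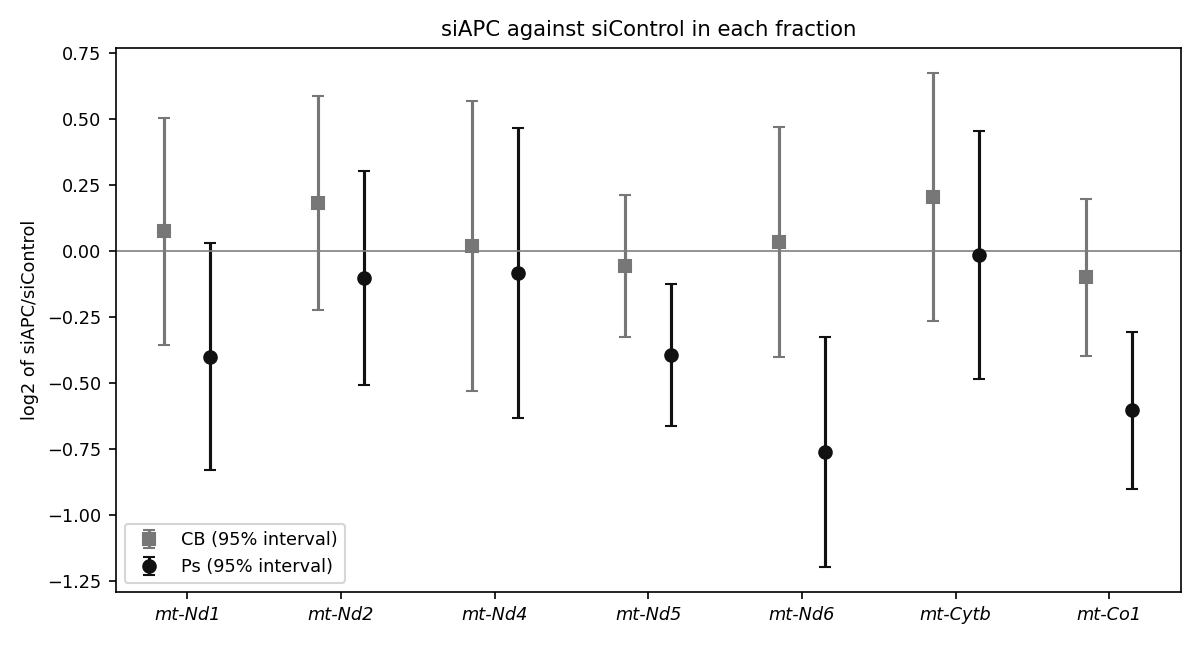
Log2 difference between siAPC and siControl for the 7 mRNAs in CB (squares) and in Ps (circles), with 95% intervals from limma. The CB intervals all include 0, and the Ps intervals of mt-Nd5, mt-Nd6 and mt-Co1 lie below it, at estimates of -0.39, -0.76 and -0.60.

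Ratios between neighbours on the mitochondrial genome do not depend on a scaling factor common to a library, but they do move under quantile normalization and the loess correction, which shift genes of a library by different amounts. Exact two-sided permutation tests of 4 against 4 libraries were run on 3 ratios in 4 comparisons each, where the smallest p possible is 0.0286 and none of the 12 passed after Benjamini-Hochberg adjustment (smallest adjusted p = 0.171). The log2 ratio of mt-Nd6 to mt-Nd5, opposite-strand neighbours, was -6.39 ± 0.13 (SD, n = 4) in siControl CB and -6.18 ± 0.35 in siControl Ps (exact permutation p = 0.286). It was -6.30 ± 0.37 in siAPC CB and -6.55 ± 0.14 in siAPC Ps (exact permutation p = 0.286). Between siRNAs it was lower in siAPC Ps by a difference of -0.37 (exact permutation p = 0.114, n = 4). Each siAPC Ps library was below the same-numbered siControl Ps library. In CB the difference was 0.09 (exact permutation p = 0.657, n = 4). The size of the ratio of mt-Nd6 to mt-Nd5 carries the limits given above for the level of mt-Nd6.

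The ratio of mt-Co1 to mt-Nd2, separated by a cluster of tRNAs, was 4.72 ± 0.16 in siControl Ps and 4.22 ± 0.21 in siAPC Ps. These groups did not overlap (exact permutation p = 0.0286, adjusted p = 0.171, n = 4). The ratio was higher in Ps than in CB by 0.54 in siControl (exact permutation p = 0.0571, n = 4) and by 0.32 in siAPC (exact permutation p = 0.114, n = 4), where the same-numbered Ps library was the higher in 4 of 4. In CB it was 4.18 ± 0.48 in siControl and 3.89 ± 0.25 in siAPC, which overlapped (exact permutation p = 0.343, n = 4).

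The ratio of mt-Nd1 to the rRNA mt-Rnr2 was 4.90 ± 0.40 in siControl CB and 4.90 ± 0.17 in siControl Ps, a difference of 0.00 (exact permutation p = 1, n = 4). Both RNAs thus had the same Ps/CB ratio, 2.07. In siAPC Ps the ratio was 5.44 ± 0.15, above all siControl Ps libraries (exact permutation p = 0.0286, adjusted p = 0.171, n = 4), and in siAPC CB it was 5.55 ± 0.47.

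**Figure D4:**
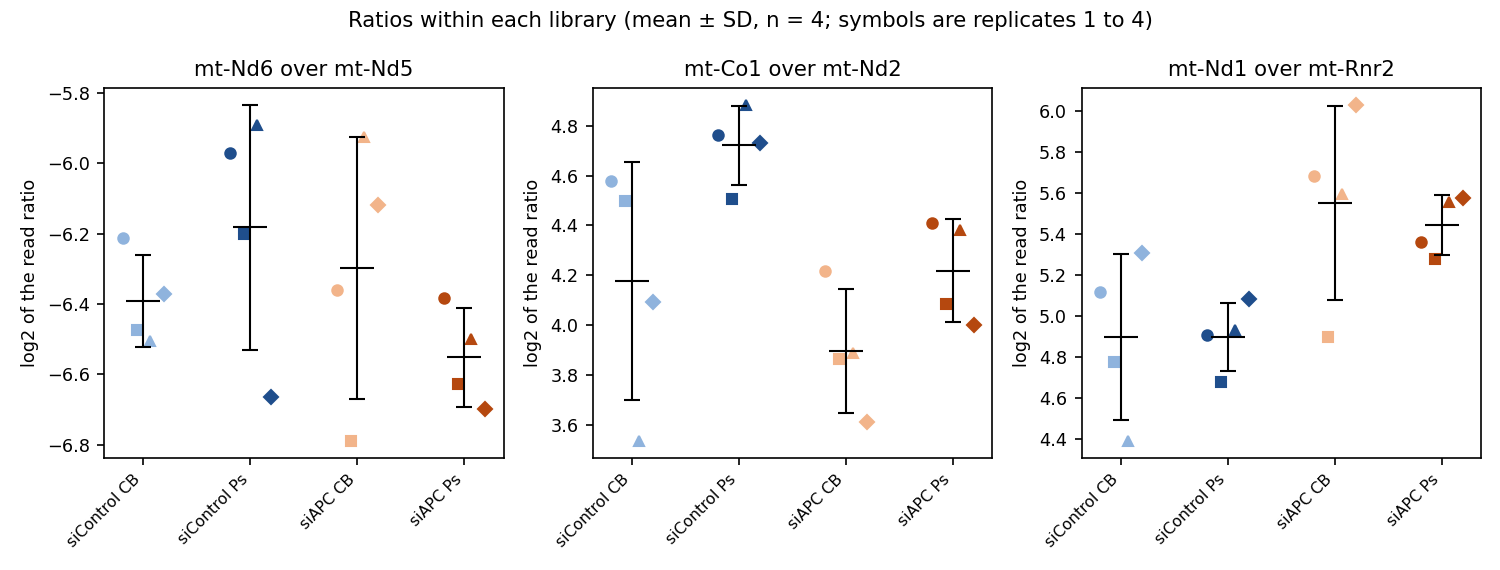
Log2 read ratio of mt-Nd6 to mt-Nd5, mt-Co1 to mt-Nd2 and mt-Nd1 to mt-Rnr2 in each of the 16 libraries, with mean ± SD (n = 4) per group. The siControl Ps and siAPC Ps libraries do not overlap for mt-Co1 to mt-Nd2 (4.72 and 4.22 on average) or for mt-Nd1 to mt-Rnr2 (4.90 and 5.44).

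Replicates of a group varied together for some members. With the group means removed, Pearson's r across the 16 libraries among mt-Nd1, mt-Nd2, mt-Nd4 and mt-Cytb was 0.83 to 0.98 in 6 pairs, while over all 21 pairs of members it ranged from 0.15 (mt-Co1 with mt-Nd5) to 0.98. These points share library preparation and depth. The same deviations had an r with the library's GC trend of -0.81 for mt-Nd4, -0.70 for mt-Cytb, -0.51 for mt-Nd2, -0.47 for mt-Nd1, -0.37 for mt-Nd5, -0.11 for mt-Co1 and 0.092 for mt-Nd6.

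The proteins of these mRNAs assemble with subunits that are encoded in the nucleus, translated in the cytosol and imported. Of 36 nuclear genes of complex I, 35 rose in siControl Ps and 34 in siAPC Ps, and none fell, beside the 29.1% and 29.8% of all genes that rose. Their median log2 ratios were 0.73 and 0.59. The ratio was highest for Ndufa5 at 1.26 (SE 0.10, adjusted p = 2.01e-09) and lowest for Ndufv1, a catalytic subunit of the matrix arm, at 0.04 (adjusted p = 0.652 by limma). Of 9 genes of complex III, 8 rose in siControl and 7 in siAPC, where Uqcrc1 fell (-0.21, adjusted p = 0.0408), and Uqcrb was highest at 1.41 in siControl. All 11 genes of complex IV rose in both, from 0.58 (Cox6a1) to 1.58 (Cox7b) in siControl. The members spread more widely than these 3 lists.

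Of 34 genes that copy, transcribe and process the mitochondrial genome, 14 rose (41.2%, beside 29.1% of all genes) and 7 fell (20.6%, beside 31.2%) in siControl Ps. In siAPC Ps 17 rose (50%, beside 29.8%) and 8 fell (23.5%, beside 30.9%). Slirp, which binds mitochondrial mRNAs and stabilises them, was highest at 1.77 (SE 0.11, adjusted p = 1.90e-10 by limma), and its partner Lrpprc stood at 0.52 (adjusted p = 0.00546). Polrmt, the mitochondrial RNA polymerase, was lowest at -0.78 (SE 0.12, adjusted p = 1.80e-05), and Tfam, which packs the genome and starts transcription, was at 0.18 (adjusted p = 0.0595). None of these 4 was called between siAPC and siControl in either fraction. In Ps, 2 of the 34 genes were lower in siAPC, beside 11.2% of all genes. So were 8 of the 36 genes of complex I, 2 of the 9 of complex III and 3 of the 11 of complex IV. In CB, 2 of the 34, 2 of complex I and 1 of complex III were lower, beside 764 of 13015 genes.

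Of 10 mitochondrial translation factors, 1 rose and none fell in siControl Ps, beside 29.1% and 31.2% of all genes. It was Mrrf, the ribosome recycling factor, at 0.73 (adjusted p = 6.19e-08 by limma). Mrrf was also lower in siAPC than in siControl, in CB (-0.33, adjusted p = 0.00468 by limma) and in Ps (-0.40, adjusted p = 0.000483). In Ps, 3 of the 10 factors were lower in siAPC, beside 11.2% of all genes. Taco1, a translational activator of mt-Co1, was lowest at -0.20 (adjusted p = 0.173). Of 14 genes for mitochondrial transport, fusion and fission, 8 rose (57.1%, beside 29.1% of all genes) and 4 fell (28.6%, beside 31.2%) in siControl Ps. Trak2, an adaptor that links mitochondria to motors, was highest at 1.64 (adjusted p = 1.45e-10), and Mief2, a receptor of the fission machinery, was lowest at -1.07 (adjusted p = 2.58e-10). Between siRNAs in Ps, Trak2 was lower in siAPC (-0.31, adjusted p = 0.0301 by limma) and Mief2 higher (0.29, adjusted p = 0.00435). These lists of nuclear mRNAs tell of their mRNAs in the cytosol, which need not lie near mitochondria.

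**Figure D5:**
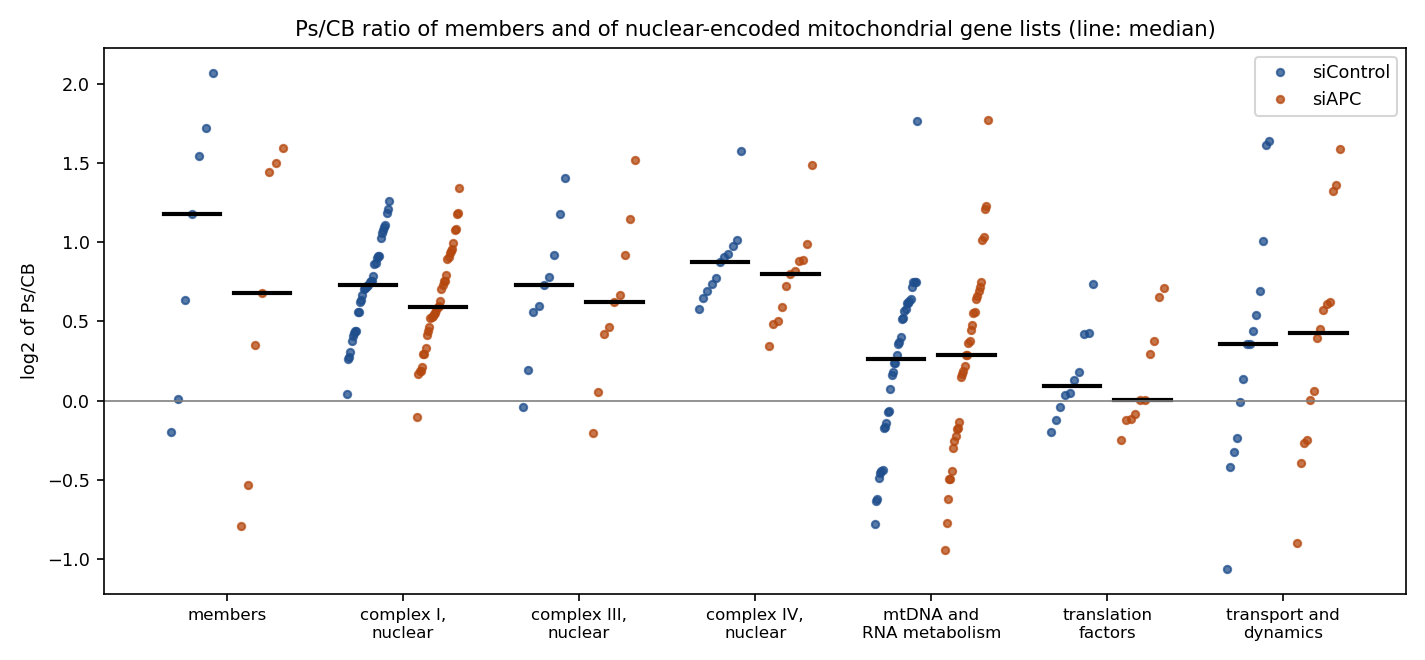
Log2 of the Ps/CB ratio in siControl (blue) and siAPC (orange) for the 7 mitochondrial mRNAs and for nuclear genes of 6 mitochondrial lists, 1 point a gene, with the median as a line. The medians of complexes I, III and IV are 0.73, 0.73 and 0.88 in siControl, and the members run from -0.20 to 2.07 around a median of 1.18.

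The RNAs whose levels followed the members most closely over the 16 libraries were sought among 7839 nuclear RNAs with a mean log2 CPM of at least 3, leaving out predicted genes and pseudogenes. The highest Pearson correlations with the members' mean log2 CPM were those of Sh3kbp1 (0.94), Nmd3 (0.93), Zrsr2 (0.93), Zc3h14 (0.93) and Ncl (0.93). Their Ps/CB log2 ratios in siControl were 0.72, 0.68, 0.73, 0.85 and 1.64. The libraries share the contrast of fractions, which such a likeness also reflects.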

How the data were processed

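Stranded RNA libraries of 16 samples were sequenced and processed by the authors with STAR 2.4.2a (mm10, mouse GENCODE release 4), Rsubread and limma-voom 3.26.1. The study's methods state a log CPM cutoff of 0.5 in at least 1 sample. However, 1298 listed rows (9.97%), mt-Tm with a highest value of -0.22 among them, stay below 0.5 on the deposited log2 scale in every sample. The lowest of the rows' highest values was -1.01, close to the log2 of 0.5. About such values are what a cutoff of 0.5 on the unlogged CPM would leave. The kit is named both as a total RNA and as an mRNA kit, so whether poly(A) RNA was selected is not settled. The deposited values are log2 CPM. All 208240 of them (100%, tolerance 1e-06) inverted to whole reads with a pseudocount of 0.5, and the totals of those reads are the depths given. Values were not scaled again. In limma 3.58.1 (R 4.3.3), 1 linear model with a mean per group was fitted to all 13015 genes and 16 libraries, with a trended empirical Bayes variance and Benjamini-Hochberg adjustment over all genes, and the contrasts were taken from it. The fit was tested on simulated data. The log2 scale includes the pseudocount of 0.5, which lowers ratios of low rows. Intervals cover the spread between these libraries, and 3 reads correspond to log2 CPM of -2.73 to -1.80. Replicates of a group differed beyond sampling noise (chi-square per degree of freedom at least 2.00).

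Same-numbered samples deviated together in siAPC CB and siAPC Ps (correlations over 10292 genes of 0.42 to 0.62) and in siControl Ps and siAPC Ps (0.16 to 0.55). In siControl CB and siControl Ps (-0.12 to 0.43) and in the CB groups (-0.34 to 0.27) not all did. Same-numbered libraries were set side by side only where all deviated together. The replicate block and the sign-flip test were run as alternatives on every comparison they apply to. Loess used GC content and length for the 12881 genes matched to GENCODE M21. Nuclear copies were sought as exact 50-base matches in its transcripts, both strands. The members, gene lists and named-gene rule (the highest and lowest Ps/CB ratio of each list in siControl at a mean log2 CPM of at least 1, and the 5 most correlated RNAs) were chosen with earlier results of these data known. Figures used matplotlib.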

Additional observations from a re-analysis of the deposited data

Results flagged for a closer look

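In siControl CB, replicate 3 lay far from the other libraries for mt-Nd4 (8.60 against 7.31 to 7.36 log2 CPM) and for mt-Cytb (10.15 against 8.99 to 9.11). The gap to the nearest library took 0.968 and 0.900 of the group's range, above Dixon's 95% critical value for 4 libraries. Such gaps were sought in 40 sets of 4, where chance gives about 1 in 20. The 2 found are no more than that rate gives. Both lie in the same library, and the deviations of mt-Cytb and mt-Nd4 from their group means correlate at 0.98. The library is one of those with a GC trend (-0.52), and its part in the gap was not tested. Without it, the Ps/CB log2 ratios in siControl were 1.86 for mt-Nd4 and 2.00 for mt-Cytb, against 1.55 and 1.73 with it.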

How the results depend on the processing

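The pseudocount of 5, the median of ratios scaling and the filter at a mean log2 CPM of 1 changed no sign and no call of a member, and the pseudocount of 5, the only one of these run on the neighbour ratios, changed none of a ratio. Values below are log2 differences, and where a sign turned neither value passed, except for mt-Co1 and under the loess correction as stated. The cause of each change was not tested. With the replicate block, no call changed but that of mt-Nd1 in Ps (siAPC against siControl, -0.40, adjusted p = 0.00997). For the neighbour ratios, the exact sign-flip test over pairs cannot go below p = 0.125, so the unadjusted p of the siAPC against siControl differences in Ps of mt-Co1 to mt-Nd2 (-0.50) and mt-Nd1 to mt-Rnr2 (0.54), neither of which passed after adjustment, lay above 0.05 by its size alone. Leaving out the 4 libraries with a GC trend turned mt-Nd5 to 0.010 (Ps against CB, siControl) and 0.062 (siAPC against siControl, CB).

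Scaling to total listed reads moved the median Ps/CB log2 ratio of all genes to -0.30 in siControl and -0.14 in siAPC, called 1 member lower in siControl Ps (mt-Nd5, -0.50), turned mt-Nd6 there to -0.29, turned the siRNA difference of the Ps/CB ratio of mt-Nd4 to 0.042, and turned mt-Cytb (0.15), mt-Nd2 (0.062) and mt-Nd4 (0.082) in siAPC against siControl in Ps. Quantile normalization sets a value by its rank alone. It gave mt-Co1 a siRNA difference of the Ps/CB ratio of 0.39 (adjusted p = 0.0262, 1 member higher), -0.39 in CB (1 member lower) and 0 in Ps, which left 1 member lower in Ps. It also turned the mt-Nd4 difference of ratios to 0.0046, and mt-Cytb (0.24), mt-Nd2 (0.014) and mt-Nd4 (0.018) in Ps. Voom weights turned mt-Nd6 in siControl to -0.012. Array weights turned it to -0.032, called 2 members higher in siAPC CB, and turned mt-Nd5 in CB (0.062) and mt-Cytb (0.092), mt-Nd2 (0.0063) and mt-Nd4 (0.037) in Ps.

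The loess correction called 3 members lower in siControl Ps, mt-Nd2 (-0.51) and mt-Nd6 (-1.56) with a turned sign and mt-Nd5, and 2 rather than 4 higher in siAPC Ps, where mt-Nd2 (-0.86, adjusted p = 0.000173) and mt-Co1 (-0.14, adjusted p = 0.363) turned. It turned mt-Nd5 in CB (0.078) and mt-Cytb in Ps (0.039) between siRNAs.

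Leaving out each library in turn kept 5 members higher in siControl Ps, 4 to 5 higher and 2 lower in siAPC Ps, and 2 to 3 lower in siAPC against siControl in Ps. Estimates near 0 turned within these ranges: mt-Nd6 in siControl Ps/CB -0.12 to 0.19, the mt-Nd4 difference of ratios -0.42 to 0.074, in CB between siRNAs mt-Nd1 -0.050 to 0.29, mt-Nd4 -0.10 to 0.34, mt-Nd5 -0.13 to 0.10 and mt-Nd6 -0.087 to 0.16, and in Ps mt-Cytb -0.13 to 0.17, mt-Nd2 -0.21 to 0.062 and mt-Nd4 -0.23 to 0.093. For mt-Nd6 to mt-Nd5 the ranges were 0.11 to 0.37 (Ps against CB, siControl), -0.42 to -0.13 (Ps against CB, siAPC), -0.031 to 0.26 (siRNAs, CB) and -0.53 to -0.27 (siRNAs, Ps). For mt-Co1 to mt-Nd2 they were 0.33 to 0.68 (Ps against CB, siControl), -0.49 to -0.15 (siRNAs, CB) and -0.57 to -0.43 (siRNAs, Ps), where the exact p rose to 0.0571 without siAPC Ps replicate 2 or 4. The exact p fell to 0.0286 for mt-Nd6 to mt-Nd5 without siAPC CB replicate 2 (siAPC) and without siControl Ps replicate 4 (siRNAs, Ps), for mt-Co1 to mt-Nd2 without siControl CB replicate 1 (siControl), and for mt-Nd1 to mt-Rnr2 without siAPC CB replicate 2 (siAPC). For mt-Nd1 to mt-Rnr2 the ranges were -0.17 to 0.14 (siControl) and -0.33 to 0.051 (siAPC). Depth limits mt-Nd6 most, at 59 to 193 reads.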
